A study of Mus musculus with 2 samples.

Results

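The genes described here are 45 genes of glycolysis, the pentose phosphate pathway and the response to low oxygen, chosen by their symbols in the deposited table of read counts. All 45 were found among its 27376 genes, and all 45 averaged 1 CPM or more (CPM is the usual read count scaled to a common library size) over the libraries. RNA was measured in 2 fresh mouse prostate tumours, 1 of the genotype Bcat_Only and 1 of the genotype Met_Bcat, both at an age of 16 months. The labels do not say whether a library came from 1 animal or from pooled tissue. Per the file headers, the Bcat_Only column also carries the words Bcat_ex3Plus and PB_Cre, a beta-catenin exon allele and a Cre driver. The header of the Met_Bcat column names no allele, no driver and no MET transgene, so neither the form of MET nor the cells that carried it are known from the labels. The tissue was taken whole, and in such bulk samples fewer cells of a type and less RNA per cell cannot be told apart. With 1 library per genotype there was no test: every difference compares these libraries, and its 95% interval covers counting error only.

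Glycolysis splits glucose into pyruvate in the cytosol, and lactate dehydrogenase turns pyruvate into lactate. Inside the mitochondria pyruvate dehydrogenase oxidises pyruvate instead, unless a pyruvate dehydrogenase kinase switches that enzyme off. The pentose phosphate pathway branches off after the first step and supplies NADPH and ribose. When oxygen is scarce, the prolyl hydroxylases of the EGLN family no longer mark the HIF alpha subunits for destruction, and HIF then induces many of these genes. HIF alpha is controlled mostly as a protein, which RNA counts do not show.

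Reads on genes totalled 19301062 for Bcat_Only and 20117724 for Met_Bcat. All CPM values are after TMM scaling, and levels of different genes are compared only as CPM per kilobase of exon. Luminal epithelial transcripts were present in both libraries, among them Krt18 at 809 and 1026 CPM and Hoxb13 at 26.9 and 153 CPM. Over 10 fibroblast markers the summed levels were 23926 (Bcat_Only) and 982 CPM (Met_Bcat), and over 11 neutrophil markers they were 7490.2 and 788 CPM. Of the neutrophil sums Ltf alone held 2574 CPM in Bcat_Only and 651 CPM in Met_Bcat. The 10 macrophage markers summed to 3842 and 657 CPM, and the 13 luminal markers to 4753 and 8203 CPM. By the size rule defined in the next paragraph 9 of the 10 fibroblast, 11 of 11 neutrophil and 10 of 10 macrophage markers were lower in Met_Bcat, and 5 luminal markers were higher and 1 lower. Elane, a neutrophil granule gene, was the only marker of these 4 lists at 0 reads, in Met_Bcat. The levels of these lists differed between the same libraries as the genes described here, and their part in those differences was not tested.

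A gene was called higher or lower in Met_Bcat when even the smaller end of its interval was a difference of 2-fold or more. Where 2 values of a gene follow each other, the first is from Bcat_Only and the second from Met_Bcat. The range after a fold is its 95% interval, and a bound below 1 lies in the other direction. Of the 45 genes 6 (13.3%) were lower and 0 were higher. Among all 14354 genes that averaged 1 CPM or more, 14.6% were lower and 4.42% higher by the same rule, so the share of lower genes in the group was close to that of all genes at this minimum. The 6 lower genes were Pfkfb3, Egln3, Pdk4, Hk2, Pfkp and Car9, each an isozyme with relatives in the same family. Without regard to the rule, 34 of the 45 ratios (75.6%) were below 1, against 47.7% of all genes. Under other scalings of library size the 34 became 32 to 41. Those scalings shift all genes too, with a median log2 ratio of all genes from −0.39 to 0.16, so 41 does not compare with the 47.7%. The median log2 ratio, computed with 0.5 CPM added to each level, was −0.33 for the 45 genes and 0.03 for all genes. Within 1.5-fold in either direction lay 28 of the 45 ratios (62.2%), close to the 61.9% of all genes.

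**Figure D1:**
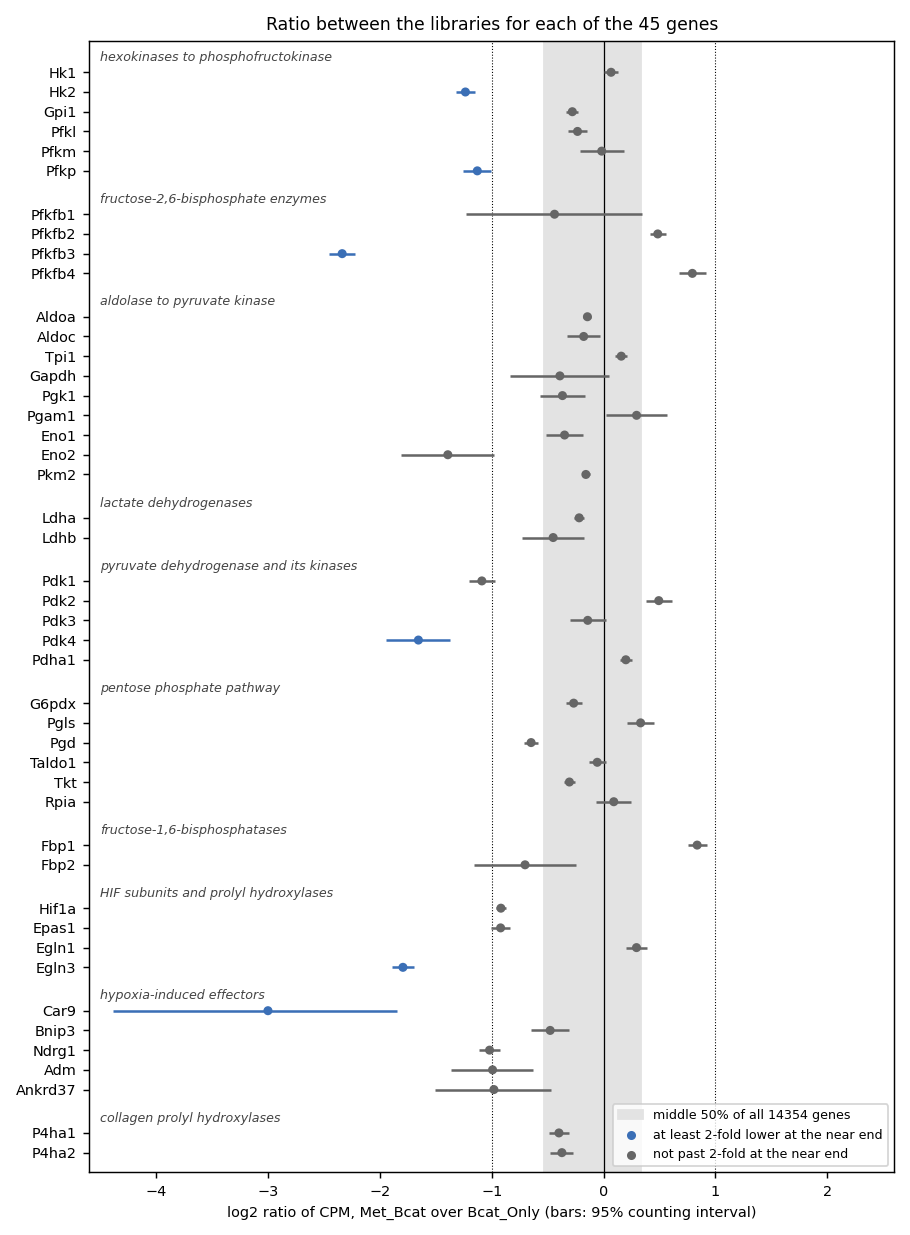
Points give the log2 ratio of CPM, Met_Bcat over Bcat_Only, for each of the 45 genes by role, and bars give the 95% counting interval. The grey band holds the middle 50% of all 14354 genes, dotted lines mark 2-fold, and the 6 blue genes lie to the left of the lower line with their whole interval, Pfkfb3 at 5.06-fold lower and Car9 at 8.01-fold lower.

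The 6 lower genes are shown with the 250 bases before a RefSeq transcription start (GRCm38.p6, a later build than the mm9 of the table), because HIF binds DNA at a short core motif. Capitals mark ACGTG or GCGTG on either strand, so their complements CACGT and CACGC are in capitals too. All sequences read 5′ to 3′ on the strand of the gene, and Fbp1, the gene with the highest log2 ratio of the 45, is added for comparison. For Pfkfb3, which has a pair of annotated starts in that table, both windows are given.
Pfkfb3, chr2:11553930-11554179, minus strand: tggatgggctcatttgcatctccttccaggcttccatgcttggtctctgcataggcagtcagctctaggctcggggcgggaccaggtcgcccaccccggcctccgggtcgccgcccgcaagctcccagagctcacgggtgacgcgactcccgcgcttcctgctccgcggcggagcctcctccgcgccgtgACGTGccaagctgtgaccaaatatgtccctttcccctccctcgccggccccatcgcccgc
Pfkfb3, chr2:11502091-11502340, minus strand: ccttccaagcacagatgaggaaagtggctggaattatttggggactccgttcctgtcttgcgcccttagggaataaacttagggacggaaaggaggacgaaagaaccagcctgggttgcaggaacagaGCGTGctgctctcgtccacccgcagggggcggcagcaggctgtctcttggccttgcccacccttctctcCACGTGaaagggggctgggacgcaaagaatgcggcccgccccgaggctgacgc
Egln3, chr12:54203875-54204124, minus strand: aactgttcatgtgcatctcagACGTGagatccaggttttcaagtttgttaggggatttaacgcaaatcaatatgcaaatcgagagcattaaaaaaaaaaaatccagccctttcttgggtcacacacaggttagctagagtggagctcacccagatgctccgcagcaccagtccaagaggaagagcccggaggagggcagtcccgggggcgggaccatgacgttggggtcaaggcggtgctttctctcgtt
Pdk4, chr6:5496279-5496528, minus strand: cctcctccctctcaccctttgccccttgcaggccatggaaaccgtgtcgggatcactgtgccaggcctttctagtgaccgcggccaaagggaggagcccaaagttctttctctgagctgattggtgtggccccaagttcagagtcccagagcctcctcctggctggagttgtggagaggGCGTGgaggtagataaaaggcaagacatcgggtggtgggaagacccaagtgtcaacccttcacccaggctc
Hk2, chr6:82774455-82774704, minus strand: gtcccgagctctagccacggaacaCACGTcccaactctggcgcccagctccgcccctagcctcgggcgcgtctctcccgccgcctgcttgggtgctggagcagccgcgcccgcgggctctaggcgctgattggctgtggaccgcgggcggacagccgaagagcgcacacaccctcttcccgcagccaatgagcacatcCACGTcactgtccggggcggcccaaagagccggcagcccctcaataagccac
Pfkp, chr13:6648772-6649021, minus strand: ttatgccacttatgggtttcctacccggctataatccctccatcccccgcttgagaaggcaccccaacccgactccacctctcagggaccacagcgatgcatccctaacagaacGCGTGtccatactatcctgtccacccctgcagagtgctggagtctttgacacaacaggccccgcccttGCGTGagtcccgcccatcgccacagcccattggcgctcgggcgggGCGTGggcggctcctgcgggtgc
Car9, chr4:43506776-43507025, plus strand: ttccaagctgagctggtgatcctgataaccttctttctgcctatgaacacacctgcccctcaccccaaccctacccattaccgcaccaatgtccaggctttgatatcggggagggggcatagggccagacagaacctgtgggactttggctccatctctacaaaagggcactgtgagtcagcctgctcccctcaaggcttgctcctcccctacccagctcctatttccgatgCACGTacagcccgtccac
Fbp1, chr13:62888283-62888532, minus strand: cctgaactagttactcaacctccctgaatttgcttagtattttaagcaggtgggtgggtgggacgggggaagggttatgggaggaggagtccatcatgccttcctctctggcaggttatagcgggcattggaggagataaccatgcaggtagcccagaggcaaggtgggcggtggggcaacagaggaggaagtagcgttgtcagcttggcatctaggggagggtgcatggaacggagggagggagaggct
Of 43 genes of the group with a window in the table, 39 (90.7%) held the motif in at least 1 window, against 59.6% of the 10833 genes that averaged 1 CPM or more and had a window. Genes with several starts had several chances: counted by window, it was 77.8% of 63 windows of the group, 53.6% of the windows of those 10833 genes and 38.6% of all 32851 windows in the table. The motif was found in 6 of 6 lower genes and in 33 of 37 genes that were not called, so its presence did not separate them. In Car9 the match lay 14 bases before the start and in Pfkp the nearest lay 19 bases before it, while in Egln3 it was 225 bases away. The Fbp1 window held none of these letters. A match is a description of the sequence and not evidence of binding, and no binding was measured.

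Of the 6 genes from hexokinase to phosphofructokinase 2 (33.3%, against 14.6% of all genes) were called lower, Hk2 and Pfkp. The median log2 ratio of the 6 was −0.26. Hexokinases trap glucose in the cell. Hk1, the broadly expressed form, had 3398 reads (184 CPM) in Bcat_Only and 4071 (193 CPM) in Met_Bcat. Hk2 (mm9 chromosome 6, 82675019 to 82724448), the inducible form that many tumours express, had 3535 and 1717 reads, or 192 and 81.5 CPM. Hk1 was thus nearly level, 1.05-fold higher in Met_Bcat (1.0 to 1.1) and lower only when scaled to luminal markers, while Hk2 was 2.36-fold lower (2.22 to 2.5). Gpi1, the isomerase of the next step, stood at 316 and 259.9 CPM, 1.21-fold lower (1.17 to 1.26).

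Phosphofructokinase commits the sugar to glycolysis and is built from liver, muscle and platelet type subunits. Pfkl, the liver type, had 127 and 108 CPM, 1.18-fold lower in Met_Bcat (1.11 to 1.25). Pfkm, the muscle type, had 21.7 and 21.4 CPM, with an interval from 1.16-fold lower to slightly higher. Pfkp, the platelet type (chromosome 13, 6579014 to 6648023), had 1507 and 788 reads, or 81.8 and 37.4 CPM. It was 2.19-fold lower (2.01 to 2.39), just past the rule, and no longer called with library sizes taken as total counts or upper quartiles. Pfkp overlaps Pitrm1 on the other strand, which had 1449 and 1659 reads, and Pfkm overlaps Senp1, with 758 and 692. The libraries came from a stranded kit, but the strand setting of the counting is not given in the sources used here, so reads of such pairs cannot be told apart with certainty.

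The PFKFB enzymes make and break fructose 2,6-bisphosphate, the strongest activator of phosphofructokinase. Pfkfb3 (chromosome 2, 11393057 to 11423728), the isozyme whose kinase activity most exceeds its phosphatase activity, was counted with 3319 (Bcat_Only) and 751 (Met_Bcat) reads, or 180.1 and 35.6 CPM. Its 5.06-fold lower level (4.67 to 5.48) was the only one of the 45 also past 4-fold at the near end of the interval. The other abundant forms lay in the opposite direction. Pfkfb4 had 46.4 and 80.3 CPM, 1.73-fold higher in Met_Bcat (1.6 to 1.88), and Pfkfb2 had 137 and 192 CPM, 1.4-fold higher (1.33 to 1.47). Neither was past the rule. Pfkfb1, known from liver and muscle, was barely detected, at 32 and 27 reads, and it overlaps Apex2 on the other strand, which had 173 and 300.

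Fructose-1,6-bisphosphatase runs the phosphofructokinase step backwards in gluconeogenesis. Fbp1, the liver and kidney form (chromosome 13, 62966113 to 62989642), was counted with 1671 (Bcat_Only) and 3413 (Met_Bcat) reads, or 90.7 and 162 CPM. At 1.79-fold higher (1.68 to 1.89) it was the highest ratio of the 45, and it was not past the rule. Fbp2, the muscle form, had 101 and 71 reads and was 1.63-fold lower (1.19 to 2.24). The list of skeletal muscle markers was low in both libraries, at a summed 7.49 and 6.41 CPM over 10 genes, with Myh1 and Myh4 at 0 reads in both.

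The enzymes from aldolase to pyruvate kinase carry the bulk flux of the pathway. None of the 9 was called, against 14.6% lower and 4.42% higher among all genes, and 9 genes are too few to tell none from those shares. Their median log2 ratio was −0.18. Pkm2, the older symbol of pyruvate kinase M under which both of its splice forms are counted, was the most abundant of the 45 at 295 CPM per kilobase in Bcat_Only and 264 in Met_Bcat. Aldoa, the main aldolase, followed at 238 and 216, Ldha, the lactate dehydrogenase subunit typical of glycolytic tissue, at 167 and 143, and Tpi1, triose phosphate isomerase, at 129 and 144. These 4 genes held the first 4 places in both libraries and none differed by more than 1.2-fold. In reads, Pkm2 had 12980 and 13302, a ratio 1.12-fold lower (1.09 to 1.14), Aldoa had 12095 and 12515, 1.11-fold lower (1.08 to 1.13), and Ldha had 9171 and 9016, 1.16-fold lower (1.13 to 1.2). Tpi1 had 5248 and 6697 reads and was 1.12-fold higher (1.08 to 1.16).

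Eno2, the enolase of neurons and neuroendocrine cells, differed most in this stretch. It had 163 and 71 reads, 2.63-fold lower (1.98 to 3.52), and missed the rule because its near end lay just under 2-fold. Markers of Schwann cells and nerve summed to 244 (Bcat_Only) and 138 CPM (Met_Bcat), with 4 of 7 measured markers called lower and none of the 8 at 0, and their part in the Eno2 ratio was not tested. Aldoc, the aldolase of brain, stood at 39.5 and 34.9 CPM (1.13-fold lower, 1.02 to 1.26). Ldhb, the subunit typical of oxidative tissue, had 245 and 205 reads, 1.37-fold lower (1.13 to 1.65).

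**Figure D2:**
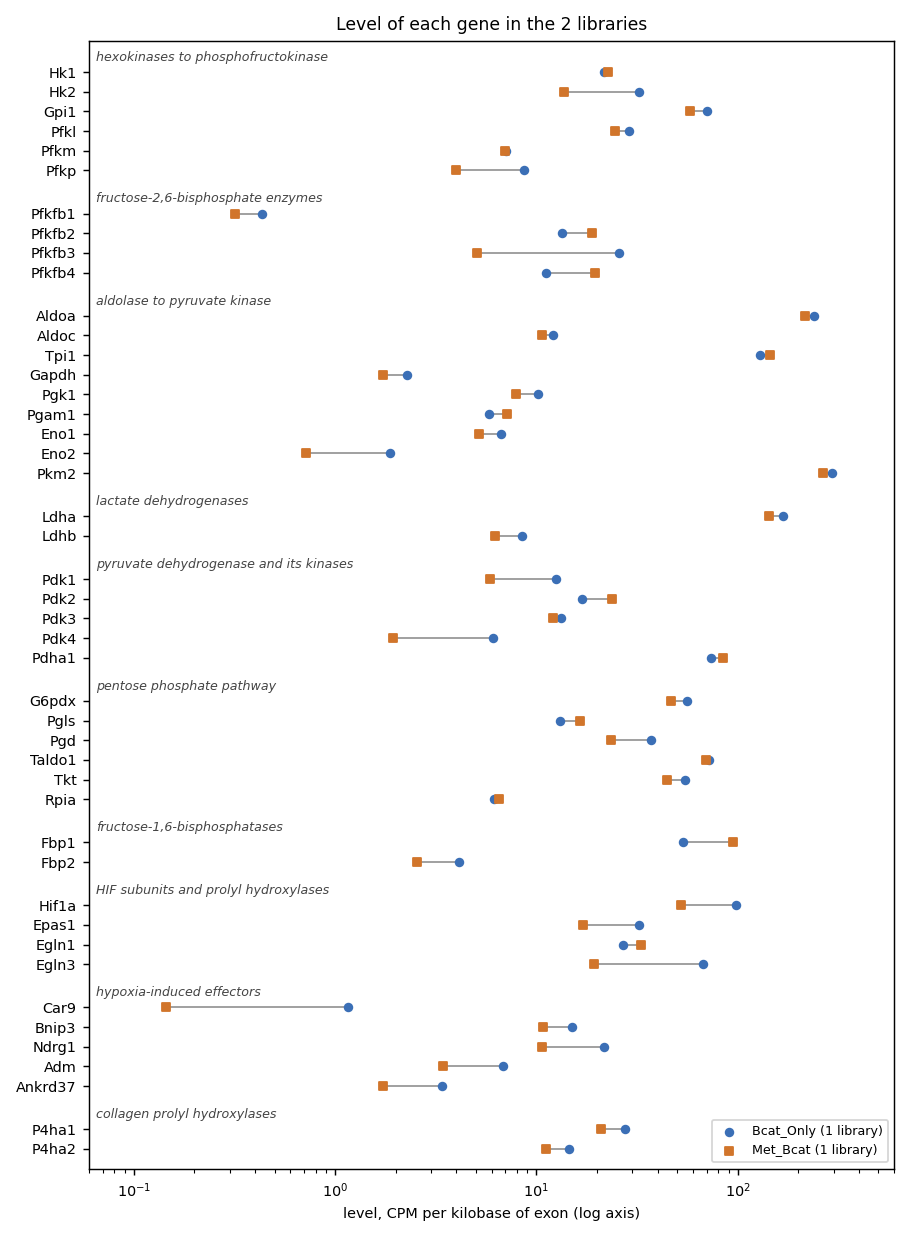
Each row gives the level of 1 of the 45 genes in CPM per kilobase of exon on a log axis, with a blue circle for the Bcat_Only library and an orange square for the Met_Bcat library. Pkm2, Aldoa, Ldha and Tpi1 lie furthest to the right with both symbols close together, while the symbols of Pfkfb3, Egln3 and Car9 are far apart.

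Other enzymes of the same stretch were counted at levels far below these. Gapdh, a gene that nearly all cells express strongly, had only 94 and 82 reads, or 2.26 and 1.73 CPM per kilobase. Pgk1 had 422 and 374 reads, Pgam1 196 and 275, and Eno1, the main enolase, 657 and 590. These genes have near-identical copies in the mouse genome. The reads were 51 bases long, and 58.1% of the 51-base windows of Gapdh transcripts also occurred exactly in transcripts of other genes. In the GENCODE M21 annotation these were 220 genes, 211 of them pseudogenes. The share was 67.9% for Pgk1, 49.3% for Eno1, 45.5% for Bnip3, 41.4% for Pgam1, 20.4% for Ldhb, 18.4% for Gpi1, 17.9% for Pkm2 and 10.2% for Taldo1. Pkm2 and Gpi1 were thus counted at high levels with a share above 10%. The shared windows of Pkm2 occurred in 7 other genes, 7 of them pseudogenes, and those of Gpi1 in 110, only 3 of them pseudogenes. The share was 0 for 27 of the 45 genes, among them Hk2, Pfkp, Egln3 and Car9, and for the remaining lower genes it was 1.35% (Pdk4) and 0.477% (Pfkfb3). How reads with several matches were counted is not given in the sources used here, so the levels of all 9 genes with a share above 10% are uncertain, that of Pkm2 included. The part of the shared windows in these levels was not tested. Of the low-count genes, Gapdh was 1.31-fold lower (0.965 to 1.79), Pgk1 1.29-fold lower (1.12 to 1.49), Eno1 1.27-fold lower (1.14 to 1.43) and Pgam1 1.23-fold higher (1.02 to 1.48). Without the 9 genes that shared at least 10% of their windows, an alternative chosen after seeing the data, 6 of 36 genes were lower. The median log2 ratio of the 36 was −0.32, and 14.6% of all genes, without such a cut, were lower.

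**Figure D3:**
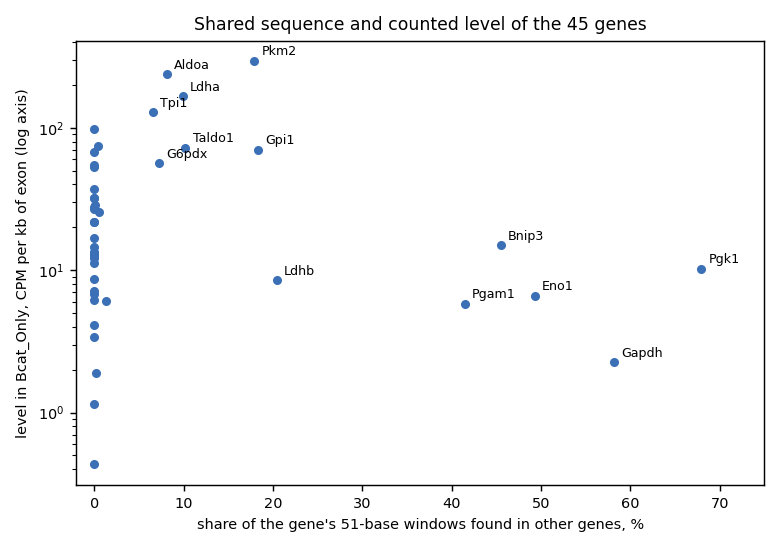
Each point is 1 of the 45 genes, with the percentage of its 51-base windows that occur in other genes on the x axis and its level in Bcat_Only, in CPM per kilobase of exon on a log axis, on the y axis. The 5 genes above 40% (Pgk1, Gapdh, Eno1, Bnip3 and Pgam1) lie at 15.0 CPM per kilobase or below.

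Pyruvate dehydrogenase is switched off by 4 kinases, and their RNA levels differed between the tumours in both directions. Pdk4 (chromosome 6, 5433351 to 5446309), the kinase induced by fasting and glucocorticoids, was counted with 394 (Bcat_Only) and 143 (Met_Bcat) reads, or 21.4 and 6.79 CPM, 3.15-fold lower (2.6 to 3.84). Pdk1, the kinase that HIF induces, had 97.7 and 45.9 CPM and was 2.13-fold lower (1.97 to 2.3), just short of the rule. Pdk2 lay the other way, at 53.0 and 74.6 CPM, 1.41-fold higher (1.3 to 1.53). Pdk3 had 34.0 and 30.8 CPM, and its interval (0.987 to 1.23 as a fold lower) included no difference. Pdha1, the catalytic subunit of the dehydrogenase itself, was 1.15-fold higher (1.11 to 1.19), at 279 and 319.9 CPM.

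None of the 6 pentose phosphate genes was called, against 14.6% lower and 4.42% higher among all genes. The median log2 ratio of the 6 was −0.16. Pgd, which yields the second NADPH of the oxidative arm, had 4382 and 3198 reads and differed most, 1.57-fold lower (1.5 to 1.64). G6pdx, the entry enzyme, had 173 and 144 CPM, 1.2-fold lower (1.15 to 1.27), and Pgls, which opens the lactone between them, had 49.1 and 61.8 CPM, 1.26-fold higher (1.15 to 1.37). The oxidative arm thus held ratios on both sides of 1, except with scaling to luminal markers, where Pgls was lower too. In the non-oxidative arm, Tkt, transketolase, had 359 and 291 CPM, 1.24-fold lower (1.19 to 1.28). Taldo1, transaldolase, and Rpia, ribose-5-phosphate isomerase, had intervals that included no difference, at 1.04-fold lower (0.987 to 1.1) and 1.06-fold higher (0.955 to 1.19).

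Of the 11 genes of the HIF pathway and the response to low oxygen, 10 had a ratio below 1. By the rule 2 (18.2%) were lower, close to the 14.6% of all genes, and the median log2 ratio of the 11 was −0.92. Hif1a, the HIF subunit found in most cells, was counted with 10672 (Bcat_Only) and 6459 (Met_Bcat) reads, or 579 and 306 CPM, 1.89-fold lower (1.83 to 1.95). Epas1, which encodes HIF-2 alpha and is prominent in endothelium, had 172 and 90.7 CPM, 1.89-fold lower (1.79 to 2.01). Both subunits were lower by the same factor, and neither passed the rule. The endothelial markers summed to 815 and 523 CPM, with 6 of 10 called lower and none at 0, and their part in the Epas1 ratio was not tested.

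The prolyl hydroxylases that oxygen activates differed from each other. Egln3 (chromosome 12, 55279968 to 55304847), a hydroxylase that is itself a HIF target, was counted with 3290 (Bcat_Only) and 1085 (Met_Bcat) reads, or 179 and 51.5 CPM. It was 3.47-fold lower (3.24 to 3.72). Egln1, the main oxygen sensor under normal oxygen, had 94.3 and 116 CPM, 1.23-fold higher (1.15 to 1.3), and lower with scaling to luminal markers.

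Among the effectors, Car9 (chromosome 4, 43519838 to 43526601), a membrane carbonic anhydrase that is a standard marker of hypoxic tumour areas, was scarce in both tumours. It was counted with 49 (Bcat_Only) and 7 (Met_Bcat) reads, or 2.66 and 0.332 CPM, 8.01-fold lower with a wide interval (3.61 to 21.0). Car9 passed the minimum mean of 1 CPM through Bcat_Only alone. Gm12454 overlaps it on the other strand and had 17 and 2 reads. Ndrg1, a stress-induced gene, had 2629 and 1483 reads, 2.03-fold lower (1.9 to 2.16). Adm, which encodes the vasodilator adrenomedullin, had 174 and 100 reads, 1.99-fold lower (1.55 to 2.57), and the ankyrin-repeat gene Ankrd37 had 88 and 51, 1.97-fold lower (1.38 to 2.84). The last 3 genes were about 2-fold lower without passing the rule, and Ankrd37 overlaps Ufsp2 on the other strand, which had 882 and 852 reads. Bnip3, a mitophagy receptor, had 627 and 515 reads, 1.39-fold lower (1.24 to 1.57).

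P4ha1 and P4ha2 hydroxylate prolines of collagen, a step collagen needs to fold. P4ha1 had 113 and 85.9 CPM, 1.32-fold lower (1.24 to 1.41), and P4ha2 had 90.6 and 69.9 CPM, 1.3-fold lower (1.21 to 1.39). The fibroblast markers, which include the collagen genes Col1a1, Col1a2 and Col3a1, had a median log2 ratio of −3.69 in the same libraries. Their part in the ratios of P4ha1 and P4ha2 was not tested.

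The ratio of 2 isozymes within a library does not depend on how library sizes are scaled, so the composition of each family was compared next, as shares of the summed CPM per kilobase. The shares cover only isozymes among the 45 genes and leave out expressed relatives such as Hk3, Eno3, Egln2 and Hif3a. Egln2 had 24.3 and 22.8 CPM per kilobase. Eno3 had 2.57 and 4.66, more than Eno2 with 1.88 and 0.716. Hk2 made up 59.8% of the hexokinase pair Hk1 and Hk2 in Bcat_Only and 37.6% in Met_Bcat, and the ratio of Hk2 to Hk1 was 2.47-fold lower (2.29 to 2.66). The more abundant form of the pair was thus Hk2 in one library and Hk1 in the other. Pfkfb3 was the leading form of its family in Bcat_Only with 50.5%, and held 11.6% in Met_Bcat, where Pfkfb4 had 44.6% and Pfkfb2 43.1%. Shares depend on the deposited exon lengths: by plain reads Pfkfb2 held 62.1% and Pfkfb4 26.0% in Met_Bcat. The ratio of Pfkfb3 to Pfkfb2 was 7.07-fold lower (6.43 to 7.77), the largest change of the 16 isozyme pairs. Egln3 made up 71.4% of the pair Egln1 and Egln3 in Bcat_Only and 37.0% in Met_Bcat, with a ratio to Egln1 4.25-fold lower (3.87 to 4.67).

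**Figure D4:**
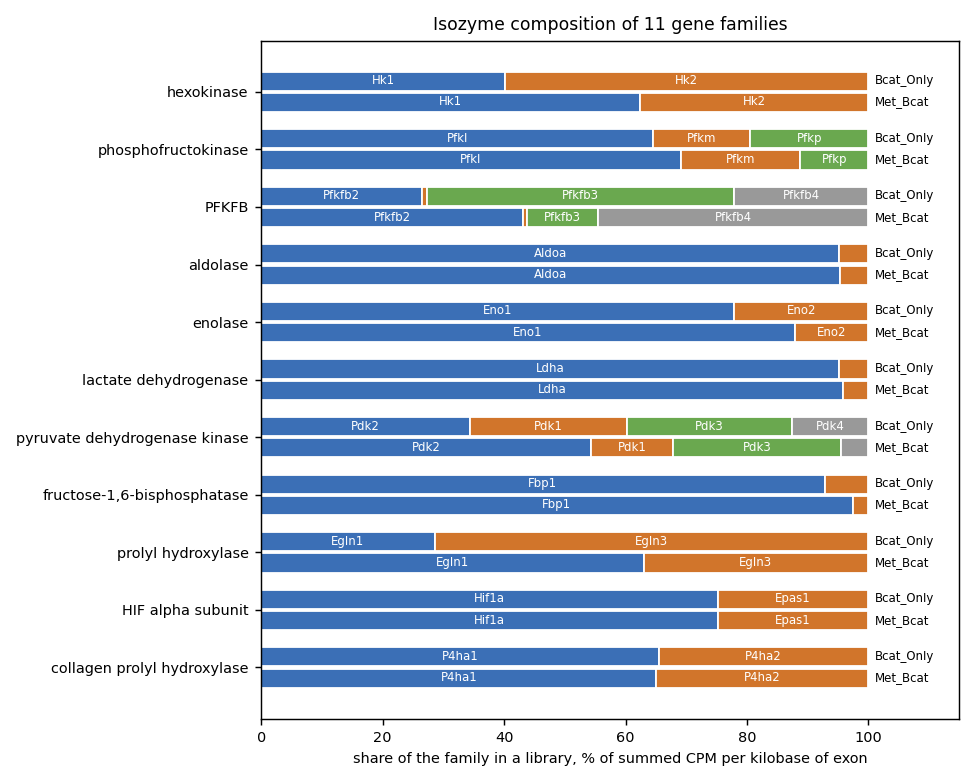
Each pair of bars splits 1 gene family into its isozymes in the Bcat_Only library (upper bar) and the Met_Bcat library (lower bar), as percent of the summed CPM per kilobase of exon, and forms under 8% carry no name. The hexokinase, PFKFB, pyruvate dehydrogenase kinase and prolyl hydroxylase bars differ between the libraries, while those of the HIF alpha subunits, the aldolases and the collagen prolyl hydroxylases nearly coincide.

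Among the pyruvate dehydrogenase kinases, Pdk2 held 34.4% in Bcat_Only and 54.3% in Met_Bcat. Relative to Pdk2, Pdk4 was 4.43-fold lower (3.59 to 5.50) and Pdk1 2.99-fold lower (2.67 to 3.35). Pfkp held 19.5% and 11.2% of the phosphofructokinases, or 35.5% and 22.4% by plain reads, with a ratio to Pfkl 1.86-fold lower (1.68 to 2.07). The minor forms Eno2 and Fbp2 were 2.06-fold (1.51 to 2.82) and 2.90-fold lower (2.11 to 4.02) relative to Eno1 and Fbp1, and the enolase shares carry the uncertain level of Eno1.

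In 4 families the composition was close, with intervals that included no change. The ratio of Epas1 to Hif1a was 0.998 times that of Bcat_Only (0.935 to 1.07), that of P4ha2 to P4ha1 1.02 times (0.926 to 1.12), and that of Aldoc to Aldoa 0.977 times (0.878 to 1.09). Ldha made up 95.2% and 95.9% of the lactate dehydrogenase pair, and the ratio of Ldhb to Ldha was 0.851 times that of Bcat_Only (0.702 to 1.03).

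Of 80 further genes of these pathways, 79 were found and 67 averaged 1 CPM or more. Among these 2 were called higher and 14 (20.9%) lower, against 4.42% and 14.6% of all genes. Their median log2 ratio was −0.17. Most of the lower genes, 11 of 14, belonged to the 29 measured hypoxia-induced genes outside the 45. They made up 37.9% of those 29, whose median log2 ratio was −0.77. The lysyl oxidase gene Lox had 18652 and 259 reads and was 82.4-fold lower (72.9 to 93.5), and Nos2, the inducible nitric oxide synthase, had 6371 and 499, 14.6-fold lower (13.3 to 16.0). The lipase inhibitor gene Angptl4 was 14.1-fold lower (11.4 to 17.7). These genes are also expressed by fibroblasts, macrophages or fat cells, and the summed fibroblast and macrophage markers were lower in the same library, whose part in these ratios was not tested. Other well-known HIF targets differed little: Vegfa, the angiogenic growth factor, had 123 and 104 CPM (1.18-fold lower, 1.11 to 1.25), the mitophagy receptor gene Bnip3l 101 and 111 (1.1-fold higher, 1.04 to 1.17) and the histone demethylase gene Kdm3a 146 and 154 (1.05-fold higher, 0.998 to 1.11), and these 3 were singled out after their values were seen. Stc2, a secreted glycoprotein gene, was the only gene of this list called higher, 2.5-fold (2.28 to 2.75).

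**Figure D5:**
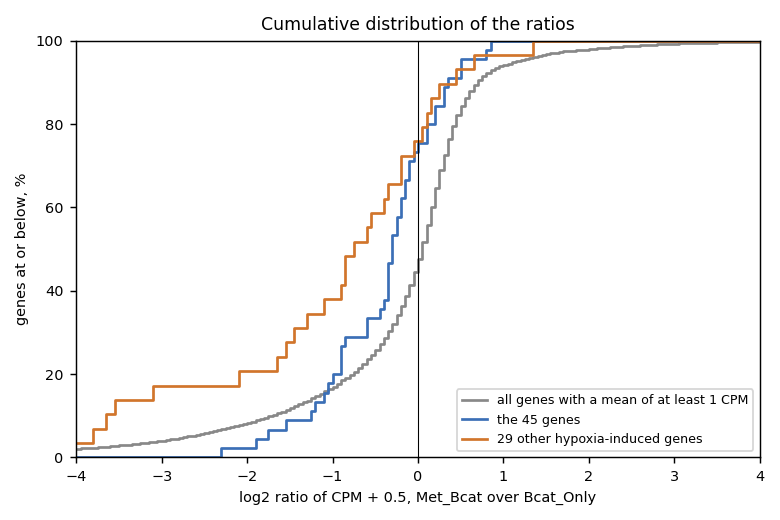
The lines give the percentage of genes at or below each log2 ratio of CPM plus 0.5, Met_Bcat over Bcat_Only, for all 14354 genes (grey), the 45 genes (blue) and the 29 other hypoxia-induced genes (orange). The blue line crosses 50% at a log2 ratio of about −0.33 and the orange line at about −0.77, against 0.03 for all genes, and the blue line does not reach below −2.32.

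Hk3, the hexokinase of myeloid cells, was counted with 517 (Bcat_Only) and 31 (Met_Bcat) reads, 19.1-fold lower (13.3 to 28.4). The neutrophil and macrophage markers were lower in the same library, and their part in the Hk3 ratio was not tested. Eno3, the muscle enolase, had 80 and 166 reads, 1.81-fold higher (1.38 to 2.4), and Pklr, pyruvate kinase of liver and red cells, 53 and 57. Egln2, the third HIF prolyl hydroxylase, was close at 68.1 and 63.8 CPM. The other members of the HIF machinery split: Arnt, the partner of the alpha subunits, and Vhl, which targets them for destruction, were 1.06-fold lower (1.0 to 1.13) and 1.01-fold higher (0.92 to 1.12), whereas Hif3a and Arnt2 were called lower, at 11.3-fold (5.19 to 29.1) and 2.54-fold (2.1 to 3.09). Hif3a rested on 69 and 7 reads and, at 3.75 and 0.332 CPM, passed the minimum through Bcat_Only alone. Arnt and Vhl were named after their values were seen. Pgm2l1, which makes glucose 1,6-bisphosphate, was the only other pathway gene called higher, at 3.49-fold (3.23 to 3.77). H6pd, the glucose-6-phosphate dehydrogenase of the endoplasmic reticulum, had 457 and 227 CPM and was 2.01-fold lower (1.94 to 2.08), just short of the rule. G6pd2, a retroposed relative of G6pdx, had 14.3 and 12.2 CPM, 1.17-fold lower (0.978 to 1.39). None of 9 further pyruvate oxidation genes and none of the 7 measured further pentose phosphate genes, H6pd and G6pd2 among them, was called. Among all genes 14.6% were lower and 4.42% higher.

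The number of lower genes depends on the scaling. With library sizes set so that the median of the 13 luminal markers is equal between the libraries, 13 of the 45 genes were lower and 0 higher, against 20.1% and 2.65% of all genes, and the median log2 ratio was −0.73 for the 45 genes and −0.39 for all genes. Under that scaling Hk1, Tpi1, Pgam1, Pdha1, Pgls, Rpia and Egln1 lay below 1, and with total counts or upper quartiles Pfkm and Taldo1 lay above 1, while no called gene changed direction.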

How the data were processed

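RNA from 2 mouse prostate tumours was sequenced as 51-base single-end reads from a stranded mRNA kit, per the labels' protocols. Per the submitters' processing notes, TopHat2 version 2, HTSeq and edgeR were used with the build mm9. The authors deposited 1 table of raw read counts per gene, with 1 column per library and the exon length of each gene in bases. Library sizes were scaled here by TMM (edgeR 4.0.16, R 4.3.3), and counts were turned into CPM. Each ratio of Met_Bcat to Bcat_Only has an exact Clopper-Pearson 95% interval conditional on the summed reads (scipy 1.17.1, Python 3.11.15). Amplified reads carried no molecular identifier and so are not independent molecules, and intervals cover counting error only. A count of 0 allows up to 3 reads, which is 0.163 CPM in Bcat_Only and 0.142 CPM in Met_Bcat. Changes of isozyme ratios are conditional odds ratios with exact intervals, and log2 medians use a pseudocount of 0.5 CPM. Calls needed a mean of at least 1 CPM and a near interval end of at least 2-fold. The mean is over both libraries, so a gene can pass through 1 library alone. The steps were tested on simulated data that held counting error only, which cannot show how the intervals hold between tumours.

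The 45 genes, the pathway lists and the marker lists were chosen with earlier results of these data known. Every one of the 45 could be named. Of the pathway lists, the text names isozymes of the 45 genes that averaged 1 CPM or more and up to 4 called genes per list and direction, of which 1 is not reported here. Copies were counted as exact 51-base matches, on either strand, to GENCODE M21 transcripts of genes that do not overlap the gene itself. Promoter windows come from RefSeq (GRCm38.p6), matched by symbol for 43 of the 45 genes.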

Additional observations from a re-analysis of the deposited data

How the results depend on the processing

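No paired analysis was possible because each genotype had 1 library, and for the same reason no library could be left out. None of the 45 genes was higher with total counts, median-of-ratios size factors (DESeq2 1.42.0), upper quartiles or another minimum. Lower were 5 with total counts (13.3% of all genes), 6 with median-of-ratios (14.6%), 5 with upper quartiles (13.9%) and 6 with no minimum (8.88%), and 5 of the 38 left at a minimum of 10 CPM (11.7%). Pfkp was the gene lost with total counts and upper quartiles, and Car9 fell below the 10 CPM minimum. With scaling to luminal markers 13 were lower (20.1% of all genes) and the median log2 ratio was −0.73, and with total counts the median was −0.21. These scalings shift every log2 ratio by −0.43 and 0.13. A near end of at least 4-fold left 1 lower gene (7.57% of all genes), and 1.5-fold gave 12 lower and 2 higher (19.7% and 8.12% of all genes). Isozyme ratios are the same from plain reads by construction. For the 45 single genes under other scalings, 77 of 180 values moved past their counting interval and 103 did not. Depth most limits Pfkfb1, with 32 and 27 reads, and Car9, with 49 and 7.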

Other observations

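The other cell type lists give the setting in which the metabolic genes were read. The 7 basal epithelial markers summed to 834 CPM in Bcat_Only and 2041 CPM in Met_Bcat, with 3 called higher and 1 lower. The 8 smooth muscle markers summed to 586 and 66.1 CPM, and 7 were lower. The 6 markers of B and plasma cells summed to 518 and 16.4 CPM, and all 6 were lower, whereas the 6 of T and NK cells summed to 40.1 and 28.4 CPM, with 1 lower. Of 6 adipocyte markers the 3 that passed the minimum were lower, among them Cfd with 578 and 0 reads. The minimum is a mean over both libraries, and Cfd (31.4 and 0 CPM) and Adipoq (3.26 and 0.0474 CPM) passed it through Bcat_Only alone. Such markers could pass only by being high there, so their calls are weak evidence. The same holds for B cell markers such as Cd79b, at 13.0 and 0.0474 CPM. Below the minimum, Plin1 had 9 and 0 reads, Cidec 17 and 0, and Lep 0 in both libraries.

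The 22 genes of the table that share 51-base windows with Gapdh held 887 reads in Bcat_Only and 346 in Met_Bcat, more in each library than Gapdh itself, with 94 and 82.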
